A study of Mus musculus with 28 samples.

Results

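Rictor-heterozygous mouse gliomas were compared with Rictor-heterozygous normal mouse brain. The arrays were taken by their labels: 4 arrays labelled glioma and 5 arrays labelled normal brain, all of the genotype hGFAP-Cre::p53-/-; Rictor+/-, which makes 9 of the 28 arrays analysed here. Both tissues therefore shared the labelled genotype of Cre transgene, p53 and Rictor, and the comparison is of tissue within a single genotype. The share of cells that had lost p53 or 1 Rictor allele was not measured in either tissue. hGFAP-Cre is a recombinase transgene under the human GFAP promoter, which is active in neural progenitors and glia, so that recombination is not limited to the cells that became tumour. The labels' protocols give snap-frozen pieces with at least 70% tumour cells, judged on matched fixed material. Age, and the brain region that the normal pieces came from, were not given. Total RNA was measured on Affymetrix Mouse 430 2.0 arrays, on which groups of short probes (probe sets) each report on one transcript as an intensity. The arrays carry the codes B1, B2, B3 and B7 for glioma and B1, B2, B4, B6 and B7 for normal brain, and values per array follow in that order. Whether the arrays of a tissue represent different mice is not stated, so a p-value here reflects only how much the arrays vary, and part of that may be technical.

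Rictor is the subunit that defines mTORC2, the kinase complex that phosphorylates AKT and SGK, whereas mTORC1 is built on Raptor. Malignant gliomas often resemble oligodendrocyte precursors or astrocytes. Oligodendrocyte precursors are dividing glial cells that depend on the transcription factors OLIG2 and SOX10 and on the PDGF receptor alpha, and they stop dividing when they mature into myelinating oligodendrocytes. A glioma piece mixes tumour cells with the brain tissue that it invades, and normal brain is rich in neurons. In such bulk samples, fewer cells of a type and less RNA per cell cannot be told apart.

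The arrays had been scaled to a common trimmed mean of 100, and their median intensity was 23.9 to 26.2 in glioma, against 18.8 to 23 in normal brain. Log2 intensities correlated at r = 0.932 to 0.942 among gliomas, at 0.946 to 0.981 among normal brains and at 0.84 to 0.912 between the tissues. The 3' to 5' ratio of Gapdh, which rises as RNA is degraded, was 1.34 to 1.743 in glioma. It was 2.575 in normal brain B2 and 0.9716 to 1.06 in the other normal brains, which lay below every glioma. The actin ratio overlapped, at 1.944 to 2.781 in glioma and 1.985 to 6.007 in normal brain, again highest in B2. An effect of RNA quality on the differences was not tested.

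Several arrays stood apart from their group in the cells that their transcripts came from. Normal brain B2 carried cerebellar transcripts: Gabra6, which granule neurons use in their GABA receptors, reached 1740.4 there, against 1.6 to 18.3 in the other normal brains. Pcp2, a Purkinje cell gene, had 1636.9 there, against 6.5 to 40.9. That array was low in forebrain genes: Camk2a, the calcium-dependent kinase of excitatory synapses, had 222.5, against 1994.5 to 2674.6. Gliomas B2 and B7 also carried Gabra6 (674.9 and 1014.0), whereas gliomas B1 and B3 had 25 and 7.3. Normal brain B1 lacked Ttr, the thyroid hormone carrier made by the choroid plexus, with 32.8 against 5381.1 to 9559.9 in the other normal brains. Glioma B3 differed in sex-linked transcripts: Xist, the RNA that coats the inactive X, had 17.3 in B3 and 3519.0 to 4490.6 in the other gliomas, while the Y-linked Eif2s3y had 402.0 in B3 and at most 3.7 in the others. All 5 normal brains had Xist between 1795.4 and 2185.3, so B3 was the single array with the male pattern.

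**Figure D1:**
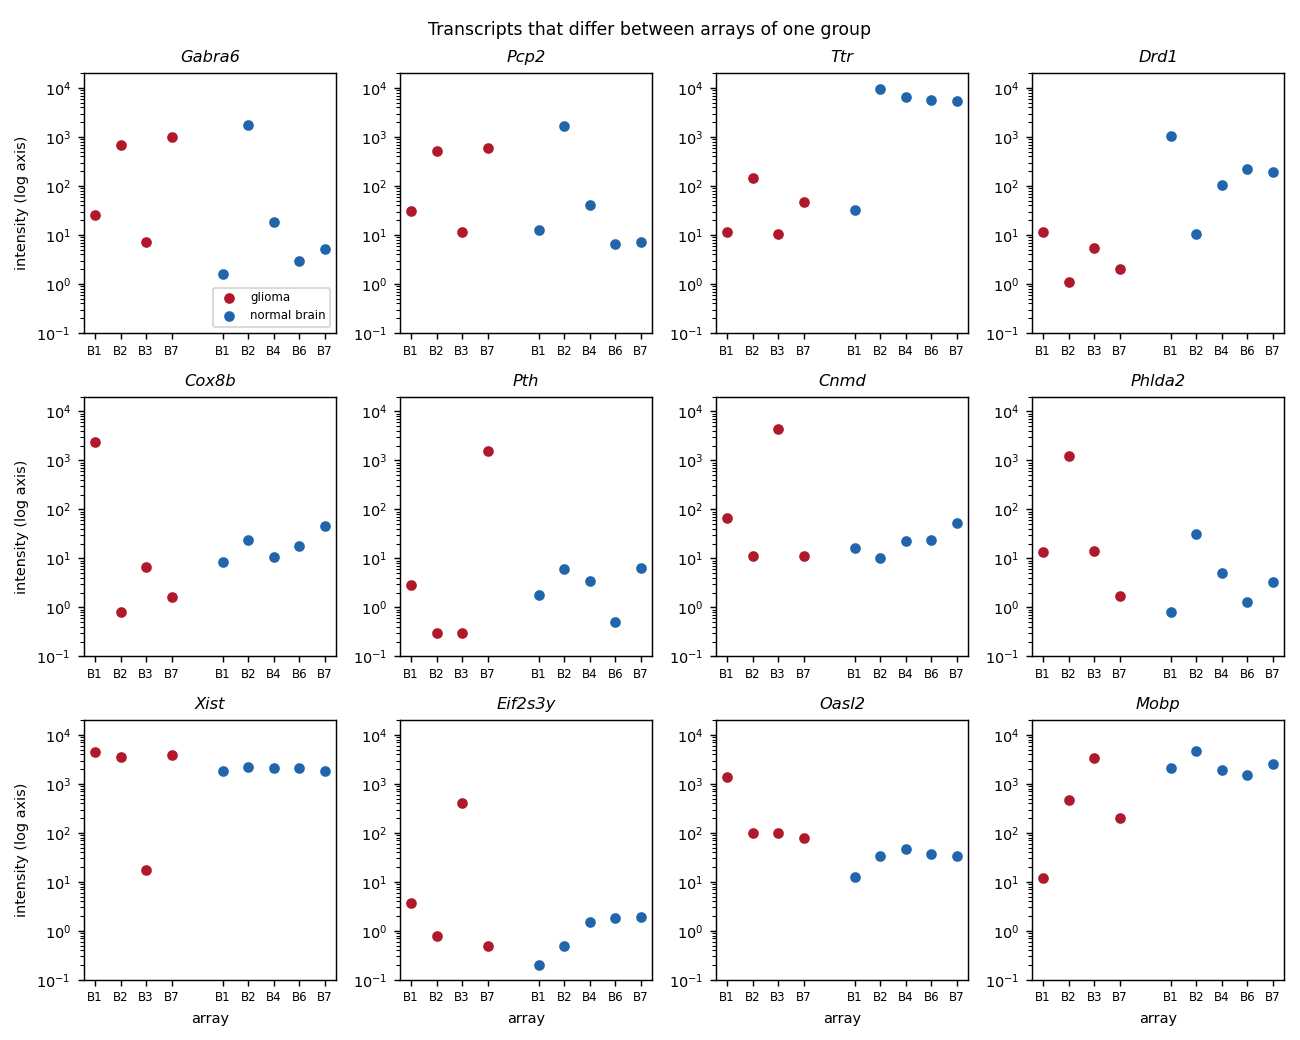
Deposited intensity (log axis) of 12 transcripts in each of the 4 glioma arrays (red) and 5 normal brain arrays (blue), named by code along the horizontal axis. Gabra6 and Pcp2 mark gliomas B2 and B7 and normal brain B2, Ttr is low in normal brain B1 (32.8), and glioma B3 has low Xist (17.3) with high Eif2s3y (402.0).

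Tumour and brain differed across a large part of the transcriptome. Of 14059 genes tested, 6005 were called by limma at a Benjamini-Hochberg adjusted p under 0.05, which is 42.7%. They comprised 3080 genes that were higher in glioma (21.9%) and 2925 that were lower (20.8%), and the median log2 difference of all tested genes was 0.055. After quantile normalization, which gives every array the same distribution, 2784 were higher and 3219 lower, and the median was -0.026. More than a 2-fold difference was found for 1488 of the higher genes and 1795 of the lower ones. The intensities of the groups did not overlap for 4837 genes (34.4%). All log2 differences are glioma minus normal brain, on the scale of log2 of the intensity plus 6.3, which understates the change of dim genes. Genes of 50 groups drawn up by cell type, pathway or process are described below by how many of their tested members were called. A group's share called is read against the 42.7% of all genes. It did not exceed that value for myelin (33.33%), astrocyte (31.58%) and sterol and fatty acid synthesis genes (20.83%). Nor did it for endothelial (31.82%), pericyte and fibroblast (31.58%) and cerebellar granule and Purkinje cell genes (26.32%).

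**Figure D2:**
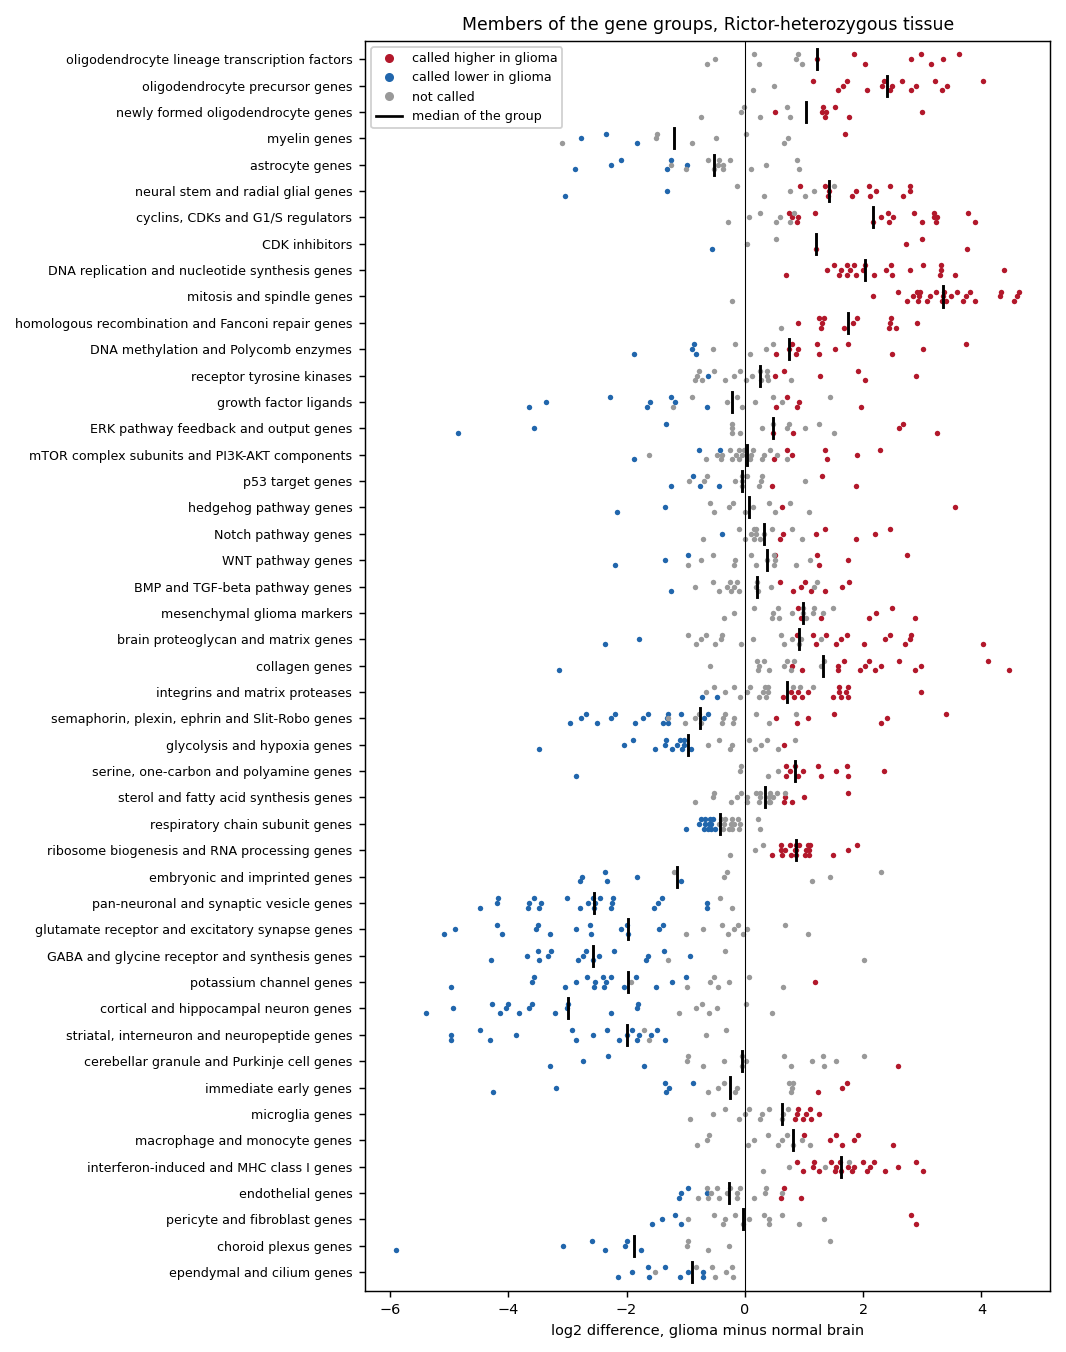
Log2 difference, glioma minus normal brain, of every tested member of the gene groups with more than 1 tested member; red points were called higher in glioma, blue points lower, grey points were not called, and the black bar is the median of the group. Cell division groups lie to the right (mitosis and spindle genes, median 3.35) and neuron groups to the left (cortical and hippocampal neuron genes, median -3.00).

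The gene targeted in these mice was measured first. The brightest Rictor probe set had intensities of 192.5, 239.3, 315.5 and 311.9 in glioma, against 251.7, 388.6, 265.7, 252.5 and 250.5 in normal brain. The groups overlapped, with a mean of 264.8 ± 59.6 in glioma (SD, n = 4) and 281.8 ± 60.0 in normal brain (SD, n = 5), and the log2 difference of -0.09 (SE 0.20) was not called (adjusted p = 0.729, limma). The other 4 Rictor probe sets were dimmer, with log2 differences of 0.15, 0.44, 0.69 and 1.08, and those at 0.15 and 0.44 were the dimmest. Only the probe set with the largest difference was called, and it was higher in glioma. It had 33.2, 51.4, 87.0 and 61.0 in glioma, against 23.7, 37.2, 26, 15.0 and 16.8 in normal brain, and the log2 difference was 1.08 with an SE of 0.29 (adjusted p = 0.0172 over all probe sets). Both tissues are heterozygous and the place of the probe sets relative to the deleted part was not analysed here, so these values do not check the label.

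Among the partners of Rictor, the mTORC2 subunit Mapkap1 (mSIN1) was higher in every glioma. It had 311.9, 310.5, 296.8 and 365.4 in glioma, against 211.8, 163.7, 163.9, 181.9 and 190.7 in normal brain, and the log2 difference was 0.80 with an SE of 0.14 (adjusted p = 0.00114). The mTOR inhibitor Deptor, which binds both complexes, fell, with 21.9, 85.1, 42.1 and 24.7 in glioma and 147.0, 161.9, 121.6, 168.9 and 190.3 in normal brain (log2 difference -1.87, adjusted p = 0.00119). The kinase Mtor itself had a mean of 300.1 ± 48.6 in glioma and 401.5 ± 32.5 in normal brain, and its difference of -0.42 was called (adjusted p = 0.0341). That call was lost when glioma B1, B2 or B3 or normal brain B1, B2, B4 or B6 was left out (adjusted p between 0.0509 and 0.0826), and the mean over all Mtor probe sets gave 0.01. The shared subunit Mlst8 and the mTORC1 subunit Rptor were not called, with log2 differences of -0.09 and -0.14.

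Across the mTOR, PI3K and AKT components 7 of 30 tested members were higher and 3 lower, a share that did not exceed the 42.7% of all genes, with a median of 0.04 (-0.03 after quantile normalization, -0.07 without glioma B7 and -0.04 without normal brain B6). Eif4ebp1, which encodes the translation repressor 4E-BP1 that mTORC1 inactivates, rose most. It had 455.8, 506.1, 150.5 and 200.7 in glioma, against 35.9, 71.5, 75.9, 36.8 and 63.5 in normal brain, and the log2 difference was 2.29 with an SE of 0.38 (adjusted p = 0.00101). Its relative Eif4ebp2 rose by 1.40, the insulin receptor substrate Irs1 by 1.89 and the PI3K regulatory subunit Pik3r1 by 1.35. Akt1 and Akt2, whose products are phosphorylated by mTORC2, differed by 0.49 and 0.71, and both were called, Akt1 not when glioma B1 or B7 or normal brain B2, B4, B6 or B7 was left out (adjusted p between 0.0539 and 0.0989). Sgk1, a kinase that mTORC2 activates, and Ndrg1, whose product SGK phosphorylates, were not called (-0.41 and -1.61).

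The largest rises were of cell division genes. Among the 12 called genes with the largest rise whose groups did not overlap, 10 act in mitosis or DNA synthesis (Mki67, Top2a, Ube2c, Rrm2, Cdc20, Ect2, Bub1, Pbk, Spc25 and Cdca8) and the other 2 are the collagens Col9a1 and Col11a1. Mki67, the proliferation antigen Ki-67, had intensities of 790.2, 620.1, 968.2 and 572.6 in glioma, against 9.4, 15.1, 41.1, 16 and 53.7 in normal brain, and the log2 difference was 4.64 with an SE of 0.39 (adjusted p = 3.32e-05). Top2a, the topoisomerase that untangles replicated chromosomes, had 2021.1, 1005.6, 1230.0 and 908.8 in glioma, against 16.2, 25.6, 98.9, 28.2 and 126.4 in normal brain (log2 difference 4.60, adjusted p = 0.000118). Ube2c, a ubiquitin-conjugating enzyme of the anaphase-promoting complex, had 939.2, 491.8, 410.4 and 715.5 in glioma, against 4.6, 17.4, 41.9, 11.9 and 46.9 in normal brain (log2 difference 4.56, adjusted p = 6.63e-05). No normal brain array reached the lowest glioma for any of these genes, and normal brains B4 and B7 had the highest normal values of each.

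Of 27 mitosis and spindle genes 26 rose and none fell, with a median of 3.35, and the groups did not overlap for 26 of them. The exception was Anln, an actin-binding protein of the cleavage furrow, whose values overlapped (151.9, 264.4, 595.4 and 281.3 in glioma, and 217.5, 806.0, 236.0, 224.9 and 445.9 in normal brain; log2 difference -0.22). The mean level of the group, on the log2 scale, was 8.32, 7.70, 7.91 and 8.12 in the gliomas, against 4.24, 4.57, 5.10, 4.30 and 5.30 in the normal brains. The count of 26 was the same when any 1 array was left out.

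Many mitotic genes share promoter elements: the cell cycle homology region (CHR), with the letters TTTGAA, and CCAAT boxes, while many DNA synthesis genes carry E2F elements. The promoters of the 3 mitosis and spindle genes with the largest rise are printed below to show these letters, from 250 bases before to 50 bases after the annotated start, from RefSeq on build GRCm38.p6 and in the direction of transcription. Capitals mark matches on either strand to the CHR, CCAAT or E2F letters, and overlapping matches were counted separately. The E2F letters searched were TTTCCCGC and, as an alternative form, TTTGGCGC. The Mki67 window is chr7:135716330-135716629 on the minus strand, the Top2a window chr11:99024140-99024439 on the minus strand and the Ube2c window chr2:164769679-164769978 on the plus strand.
Mki67: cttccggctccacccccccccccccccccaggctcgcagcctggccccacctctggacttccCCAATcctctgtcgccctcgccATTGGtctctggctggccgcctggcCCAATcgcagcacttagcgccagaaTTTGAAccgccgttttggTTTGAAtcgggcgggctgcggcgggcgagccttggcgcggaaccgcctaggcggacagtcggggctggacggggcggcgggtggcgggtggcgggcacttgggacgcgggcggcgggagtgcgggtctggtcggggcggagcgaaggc
Top2a: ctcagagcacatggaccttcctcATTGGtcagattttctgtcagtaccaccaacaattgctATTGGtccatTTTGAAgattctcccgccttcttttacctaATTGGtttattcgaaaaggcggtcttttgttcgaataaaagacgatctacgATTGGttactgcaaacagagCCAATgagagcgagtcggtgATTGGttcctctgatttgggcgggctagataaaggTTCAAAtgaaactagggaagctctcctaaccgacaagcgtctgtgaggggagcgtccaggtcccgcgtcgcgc
Ube2c: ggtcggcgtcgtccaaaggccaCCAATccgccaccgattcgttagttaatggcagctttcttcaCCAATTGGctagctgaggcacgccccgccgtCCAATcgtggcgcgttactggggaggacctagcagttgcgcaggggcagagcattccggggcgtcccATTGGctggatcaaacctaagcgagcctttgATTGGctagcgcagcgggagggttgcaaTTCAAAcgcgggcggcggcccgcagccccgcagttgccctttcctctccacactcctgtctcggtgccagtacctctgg

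The Mki67 window held 2 CHR and 3 CCAAT matches, the Top2a window 2 and 6, and the Ube2c window 1 and 6. A window was found for 24 of the mitosis and spindle genes, and 17 of them (70.8%) held the CHR letters, 17 (70.8%) CCAAT, and 15 (62.5%) both. Among all 27025 genes with a window, 18.1% held the CHR letters, 37.9% CCAAT and 7.12% both, and among the 11290 of them that were tested the shares were 11.8%, 38.3% and 4.81%. The E2F letters were in the windows of 0 of these 24 genes, in 1.63% of all windows and in 6 of 19 (31.6%) of the DNA replication genes, of which 3 of 19 (15.8%) held the CHR letters. These are matches of letters, and binding was not measured.

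DNA replication and nucleotide synthesis genes rose without exception: 23 of 23, with a median of 2.03. Rrm2, the regulated subunit of ribonucleotide reductase, had 1516.0, 962.7, 849.1 and 1669.2 in glioma, against 31.5, 40.9, 75.7, 32.4 and 108.2 in normal brain (4.38 ± 0.36 on the log2 scale, SE, adjusted p = 3.14e-05). The replicative helicase subunit Mcm5 rose by 3.55 and Mcm3 by 3.31, thymidine kinase Tk1 by 3.32 and the polymerase subunit Pole by 3.31. The smallest rise of the group was of the flap endonuclease Fen1, 0.69. Of 14 homologous recombination and Fanconi repair genes 13 rose, led by the nuclease Exo1 (2.90), with Brca1 at 2.47 and Brca2 at 1.34.

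Among cyclins, CDKs and G1/S regulators 18 of 25 rose and none fell, with a median of 2.17 (1.11 as the mean over all probe sets). Ccnd1, cyclin D1, which drives entry into the cycle through CDK4 and CDK6, had 8010.8, 6668.1, 5654.8 and 5661.4 in glioma, against 235.6, 680.0, 1953.9, 248.6 and 1680.4 in normal brain (3.25 ± 0.61 on the log2 scale, SE, adjusted p = 0.00194). It was among the brightest transcripts of the tumours, and its normal values spread over a wide range. Its kinase Cdk4 rose by 2.42 and the mitotic kinase Cdk1 by 3.88. Myc, a growth-promoting transcription factor, had 489.4, 324.9, 375.7 and 255.1 in glioma, against 18.7, 35.0, 52.3, 27.3 and 32.3 in normal brain (3.24 ± 0.27 on the log2 scale, SE, adjusted p = 3.1e-05). Its relatives Mycn and Mycl were not called (0.84 and 0.77).

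The CDK inhibitors, which oppose these kinases, did not fall as a group: 4 of 7 were higher and 1 lower. Cdkn2a, which encodes p16INK4a and p19ARF, had 524.3, 1534.1, 45.4 and 86.4 in glioma, against 6.0, 13.7, 57.5, 0.6 and 13.3 in normal brain (3.76 ± 0.96 on the log2 scale, SE, adjusted p = 0.00978). The groups overlapped, since glioma B3 lay below normal brain B4. Its neighbour in function Cdkn2b (p15) followed the same order among the tumours, with 222.6, 646.3, 62.0 and 158.7, against 8.9 to 41.5 in normal brain (log2 difference 2.72, adjusted p = 0.0041). Cdkn2c (p18) rose by 2.99 and Cdkn1b (p27) by 1.21, both without overlap, and Cdkn2d (p19INK4d) was called lower (-0.55) with all 9 arrays, a call lost when any array but glioma B7 or normal brain B2 was left out (adjusted p between 0.0739 and 0.111) and after quantile normalization. Cdkn1a (p21), the best known p53 target, was at 163.5 to 262.4 in glioma and 98.3 to 479.5 in normal brain and was not called (0.03).

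The p53 target genes did not exceed the background either: 3 of 19 were higher and 4 lower, with a median of -0.05 (-0.23 after quantile normalization). Both tissues are labelled p53-/- with hGFAP-Cre, but the share of their cells that lack p53 was not measured and may differ. Gtse1, a G2 and S phase gene, rose by 1.87, the stress gene Sesn2 by 1.30 and Mdm2, the ubiquitin ligase of p53, by 0.45, a call lost without glioma B2 or normal brain B4 or B6 (adjusted p between 0.0521 and 0.0611). The adhesion gene Perp and cyclin G1 (Ccng1) fell (-1.26 and -0.87).

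Chromatin regulators moved in both directions. Of 21 members of the DNA methylation and Polycomb group, which includes histone deacetylases, 12 rose and 4 fell. Uhrf1, which guides maintenance methylation to replicated DNA, had 299.3, 181.9, 349.9 and 347.0 in glioma, against 5.8, 11.3, 25.2, 10.3 and 37.9 in normal brain (3.74 ± 0.38 on the log2 scale, SE, adjusted p = 6.51e-05). The Polycomb methyltransferase Ezh2 rose by 3.01 while its paralogue Ezh1 fell by 0.89. The methyltransferases Dnmt1, Dnmt3a and Dnmt3b rose by 1.22, 0.86 and 2.49, and the histone deacetylases Hdac1 and Hdac2 by 1.75 and 0.90, whereas Hdac11 fell by 1.87. Genes of ribosome biogenesis and RNA processing rose in 21 of 24 cases by modest amounts (median 0.86), among them Hnrnpa1 (1.89), the nucleolar methyltransferase fibrillarin (Fbl, 1.74) and nucleophosmin (Npm1, 0.85).

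The gliomas carried an oligodendrocyte precursor programme. Of 18 precursor genes 16 rose and none fell, with a median of 2.41, and the level of the group was 9.12, 8.68, 9.11 and 9.63 in the gliomas, against 6.63, 6.68, 7.22, 6.61 and 7.21 in the normal brains. Pdgfra, the receptor for the mitogen PDGF-A, had 4354.9, 2972.3, 3167.5 and 3942.1 in glioma, against 284.2, 423.1, 799.2, 341.1 and 744.4 in normal brain (2.89 ± 0.31 on the log2 scale, SE, adjusted p = 8.27e-05). Every glioma lay above every normal brain. Vcan, the matrix proteoglycan versican, had 2788.0, 1219.2, 3881.2 and 2465.7 in glioma, against 93.2, 115.0, 170.3, 94.3 and 318.8 in normal brain (4.02 ± 0.41 on the log2 scale, SE, adjusted p = 6.51e-05). Pcdh15, a protocadherin, was the most even of the group across tumours, with 717.1, 653.8, 727.7 and 555.2 in glioma, against 45.9 to 79.1 in normal brain (3.34 ± 0.20 on the log2 scale, SE, adjusted p = 2.43e-05). Cspg4, the NG2 proteoglycan, rose by 2.81, with glioma B1 at 170.2 and the other gliomas at 611.1 to 713.8. Gpr17, a receptor of precursors that are about to mature, rose by 2.36, with glioma B2 at 124.6 and the other gliomas at 652.0 to 1533.6, and its call was lost without glioma B1, B3 or B7 (adjusted p between 0.0522 and 0.0721).

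The transcription factors of the lineage rose in 8 of 15 cases and fell in none. Olig2, which specifies the lineage, had 1274.9, 1109.9, 1073.3 and 1273.8 in glioma, against 65.3, 166.6, 239.9, 70.7 and 173.3 in normal brain (3.15 ± 0.35 on the log2 scale, SE, adjusted p = 0.000108). Sox10 had 1148.5, 808.9, 946.9 and 1047.0 in glioma, against 49.8, 103.7, 182.8, 51.6 and 116.7 in normal brain (3.35 ± 0.34 on the log2 scale, SE, adjusted p = 6.63e-05). Nkx2-2 varied more, with 664.2, 155.3, 254.6 and 942.5 in glioma and 16.3 to 37.8 in normal brain (log2 difference 3.62, adjusted p = 0.000273). Olig1, Sox6, Sox8 and Myt1 rose by 2.03, 2.98, 1.84 and 2.82. Myrf, which switches on myelin genes, and Nkx6-2 were not called (-0.64 and 0.15).

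**Figure D3:**
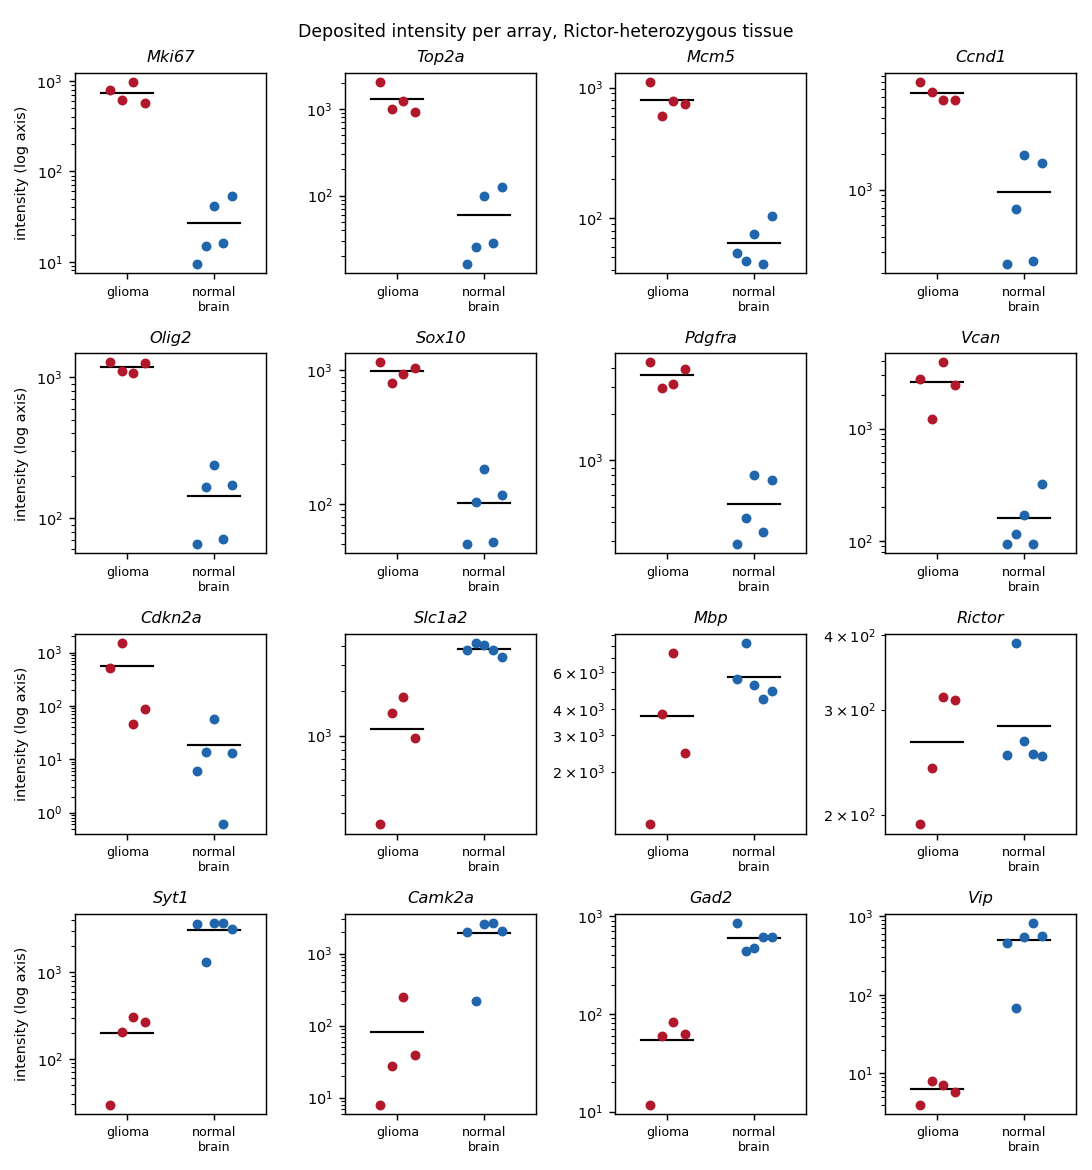
Deposited intensity (log axis, a different range in each panel) of 16 genes in each glioma array (red, left) and normal brain array (blue, right), with a bar at the group mean. The groups are separated for the cell division and precursor genes in the upper rows, overlap for Cdkn2a, Mbp and Rictor, and are separated for Syt1, Gad2 and Vip, where glioma is lower.

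Later stages of the lineage differed less. Of 14 genes of newly formed oligodendrocytes 8 rose, a count that was 5 without normal brain B1 or B6, and the tetraspanin Cd9 led with 3180.8, 2450.1, 3827.1 and 3086.6 in glioma, against 176.2, 499.3, 548.0, 247.7 and 696.5 in normal brain (2.99 ± 0.37 on the log2 scale, SE, adjusted p = 0.000186). The kinase Fyn rose by 1.75. Enpp6, an early marker of maturation, was not called (-0.07).

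Myelin genes were 1 of 12 higher, 3 lower and 8 not called, with a median of -1.19, and their values depended on the array. Ugt8a, which makes the myelin lipid galactosylceramide, was higher in every glioma (847.3 to 1780.8, against 200.4 to 691.2 in normal brain; log2 difference 1.69, adjusted p = 0.00448). Mbp, myelin basic protein, had 1116.5, 3779.2, 7441.0 and 2463.1 in glioma, against 5573.6, 8318.0, 5217.1, 4451.2 and 4881.4 in normal brain, and was not called (-0.90). Mobp had 12, 461.7, 3422.4 and 197.4 in glioma, against 1501.2 to 4758.8 in normal brain, and was not called either (-3.09, adjusted p = 0.0531). Glioma B3 alone lay within the normal range for both. Without glioma B3, 7 of the 12 myelin genes were called lower, and without glioma B1 or B2 or normal brain B2 or B4 only 1 was. Without glioma B7, normal brain B7 or the 3 arrays with cerebellar transcripts none was called lower. After quantile normalization 5 were called lower. The count of higher myelin genes, 1 in the main fit, was 2 without glioma B2. It was 3 without the 3 arrays with cerebellar transcripts, so the balance of calls turned to higher there, while the median stayed negative (-0.915).

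Astrocyte genes were not higher in the tumours: 0 of 19 rose and 6 fell, with a median of -0.52. Slc1a2, the main glutamate transporter of astrocytes, had 252.5, 1414.5, 1815.5 and 960.7 in glioma, against 3751.6, 4223.7, 4051.9, 3770.1 and 3379.5 in normal brain (-2.09 ± 0.46 on the log2 scale, SE, adjusted p = 0.00473). The gap junction proteins Gja1 (connexin 43) and Gjb6 (connexin 30) fell (-2.27 and -2.88). Gfap, the intermediate filament of astrocytes, had 286.1, 85.0, 1024.4 and 166.3 in glioma, against 36.4, 331.0, 166.5, 107.1 and 178.5 in normal brain and was not called (0.92). Aqp4, the water channel of astrocyte endfeet, overlapped as well (322.6 to 2722.8 in glioma, and 306.5 to 1454.4 in normal brain; 0.36). Glioma B1 was lowest and glioma B3 highest of the tumours in the level of the astrocyte group (8.07 and 10.06, against 9.52 to 10.41 in normal brain). The astrocyte count of 0 higher was 1 without glioma B1 or B2 or normal brain B2 and after quantile normalization. Without glioma B3 the count of lower genes was 9, and without glioma B1 it was 4.

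Of 21 genes of neural stem cells and radial glia 13 rose and 2 fell. Fabp7, the fatty acid binding protein of radial glia, had 6312.2, 4582.4, 3877.7 and 3103.8 in glioma, against 164.0, 826.4, 1009.6, 458.0 and 1444.0 in normal brain (2.79 ± 0.53 on the log2 scale, SE, adjusted p = 0.00216). Sox4, a transcription factor of progenitors, rose by 2.67 and Sox2 by 1.81, both without overlap, and the intermediate filaments vimentin (Vim) and nestin (Nes) rose by 2.22 and 1.41. The members that fell are Dlx1 and Dlx2, transcription factors of forebrain interneurons, and the call of Dlx2 was lost without glioma B1, B3 or B7 or normal brain B1, B4, B6 or B7 (adjusted p between 0.0562 and 0.0946). Dlx1 was at 0.3 to 5.0 in every glioma and at 0.4 in normal brain B2, against 64.7 to 232.5 in the other normal brains (log2 difference -3.05, adjusted p = 0.0135).

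Signals that drive glioma growth were examined by role. In the receptor tyrosine kinase, ERK, Notch, BMP, WNT and hedgehog groups the share of members called did not exceed the 42.7% of all genes, and their values are given as a description. Of 23 receptor tyrosine kinases 6 were higher and 1 lower, with a median of 0.25 (0.10 as the mean over all probe sets, -0.05 without glioma B2). Without glioma B3, 3 were lower, and without normal brain B1, B4 or B7 none was. Beside Pdgfra, the neuregulin receptor Erbb3 rose, with 488.8, 233.6, 994.2 and 177.4 in glioma and 76.5 to 137.0 in normal brain (log2 difference 1.91, adjusted p = 0.00575). The collagen receptors Ddr1 and Ddr2 rose by 1.28 and 2.03. Egfr, the receptor most often amplified in human glioblastoma, was not called and was at 19, 159.9, 77.8 and 24.6 in glioma, against 81.2 to 112.8 in normal brain (-0.80). Met and Fgfr1 were not called (-0.18 and 0.25).

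Among growth factor ligands 5 of 22 were higher and 8 lower. Tgfa, a ligand of the EGF receptor, had 601.9, 308.2, 596.0 and 1176.1 in glioma, against 197.4, 85.3, 170.3, 135.7 and 186.5 in normal brain (1.97 ± 0.36 on the log2 scale, SE, adjusted p = 0.00165). Pdgfa, the ligand of the receptor above, rose by 0.72 and the heparin-binding factors Mdk and Ptn by 0.92 and 0.88. Among the members that fell are genes of neurons, such as Bdnf (-2.27), Nrg3 (-3.37) and Fgf13 (-3.65), the last listed by its family name only. The count of higher ligands was 3 when glioma B2 or B3 or normal brain B1, B6 or B7 was left out, and the call of Mdk was lost in each of these fits (adjusted p between 0.0515 and 0.0666).

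Feedback and output genes of the ERK pathway, which report on signalling through these receptors, rose in 5 of 19 cases and fell in 3, and the count of 5 was 3 without glioma B1. Etv4, an ERK-driven transcription factor, differed between tumours, with 215.5, 261.4, 14.2 and 92.4 in glioma and 2.6 to 28 in normal brain (log2 difference 2.68, adjusted p = 0.0117). The inhibitor Spry1 rose by 2.60, while Dusp6 and Spry2 were not called (0.74 and 0.72). The members that fell are Egr1 and the neuronal exchange factors Rasgrf1 and Rasgrp1 (-1.33, -3.57 and -4.86), and the call of Egr1 was lost without glioma B3 or B7 or normal brain B1, B4, B6 or B7 (adjusted p between 0.0522 and 0.0749).

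In the Notch pathway 7 of 21 members rose and 1 fell (none without glioma B2 or B3 or any 1 normal brain). The receptor Notch1 had 1188.3, 497.7, 533.5 and 1192.4 in glioma, against 96.2, 186.7, 164.1, 118.2 and 142.5 in normal brain (2.45 ± 0.31 on the log2 scale, SE, adjusted p = 0.00022). Its ligands Dll1, Dll3 and Jag1 rose by 1.36, 1.88 and 2.21, and the targets Hes1, Hes5 and Hey2 were not called (0.33, 0.97 and 0.19). In the BMP and TGF-beta pathway 8 of 24 rose and 1 fell. That was 3 lower without glioma B3 or after quantile normalization, and none without glioma B2 or B7 or normal brain B1, B6 or B7. There Id3, an inhibitor of differentiation factors induced by BMP, rose by 1.76 without overlap (567.4 to 1004.3 in glioma, against 191.5 to 290.4 in normal brain; adjusted p = 8.34e-05), and the signal transducer Smad5 rose by 1.65.

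Of the WNT pathway 5 of 21 members rose and 3 fell. Wif1, a secreted inhibitor, ranged from 43.8 to 437.2 in glioma, against 5.8 to 42.5 in normal brain (log2 difference 2.74, adjusted p = 0.00591), and the feedback target Axin2 was not called (0.18). Of the hedgehog pathway, 2 of 14 rose and 2 fell, with a median of 0.07 (-0.10 after quantile normalization, and between -0.20 and -0.01 without glioma B2 or normal brain B6 or B7). Without glioma B7 or normal brain B2, 4 rose, without the 3 arrays with cerebellar transcripts 5 rose, and without glioma B3, 4 fell. Pdlim3, an actin-associated protein often used as a hedgehog marker in medulloblastoma, rose by 3.56, but the target Gli1 was at 1.3 to 7.6 in glioma and 5.0 to 17.4 in normal brain and was not called (-0.60), and Ptch1, also a target, was not called (0.52). The ligand Shh fell by 2.17.

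The tumours carried more transcripts of matrix genes. Of 28 collagen genes 15 rose and 1 fell, with a median of 1.32. The collagen rises were 11 without normal brain B1 or B7 and after quantile normalization. Col9a1, a collagen best known from cartilage, had 514.9, 204.3, 5428.7 and 331.4 in glioma, against 12.1, 28.6, 28.1, 17.3 and 43.9 in normal brain (4.46 ± 0.80 on the log2 scale, SE, adjusted p = 0.00145). Col11a1 had 338.0, 463.5, 2400.8 and 564.0 in glioma, against 22.7 to 47.8 in normal brain (4.11 ± 0.49 on the log2 scale, SE, adjusted p = 0.000164). Every glioma lay above every normal brain for both, and glioma B3 was several times above the other tumours. Without glioma B3 the differences were 3.45 and 3.51. The partner chains Col9a3, Col9a2 and Col11a2 rose by 2.87, 1.94 and 2.60 (Col9a2 was not called when any 1 normal brain was left out), whereas the fibroblast collagens Col1a1 and Col1a2 were not called (0.41 and 0.32). Col25a1, a membrane collagen of neurons, fell by 3.14.

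Of 31 brain proteoglycan and matrix genes 14 rose and 2 fell (4 without glioma B2). Beside Vcan and Cspg4, Has2, which synthesises hyaluronan, rose by 2.71, with 69.7, 39.2, 181.4 and 42.7 in glioma and 0.8 to 14.3 in normal brain (adjusted p = 0.000882), and tenascin C (Tnc) rose by 2.80. The hyaluronan link protein of perineuronal nets, Hapln4, fell by 1.79. Among integrins and matrix proteases 14 of 32 rose and 2 fell, a share called of 50%, against the 42.7% of all genes. The rises were 7 without glioma B2, 8 without normal brain B1 and 9 without normal brain B6, and neither fall was called without glioma B1 or B2 or normal brain B1, B4 or B7, or as the mean over all probe sets. Among those that rose was the metalloprotease Adam12, which led at 2.98 (143.6 to 760.9 in glioma, against 16.3 to 36.0 in normal brain). Of 22 mesenchymal glioma markers, genes of the class of human tumours that resembles connective tissue, 7 rose and none fell, and 12 rose without glioma B7. Their share called with all 9 arrays, 31.82%, did not exceed the 42.7% of all genes called in either direction. Among all genes 21.9% were called higher. Lgals3 (galectin 3) and Emp1 rose by 2.88 and 2.49, Cd44, the hyaluronan receptor, by 2.10, and Chil1 and Met were not called (0.16 and -0.18).

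Axon guidance genes fell more often than they rose: of 36 semaphorin, plexin, ephrin, and Slit and Robo genes, 16 were lower and 7 higher. Sema3d had 345.7, 520.5, 1526.4 and 694.0 in glioma, against 32.2, 55.4, 70.3, 52.2 and 89.8 in normal brain (3.40 ± 0.40 on the log2 scale, SE, adjusted p = 0.000146). The receptor Plxnb3, an oligodendrocyte lineage plexin, rose by 2.30 and netrin 1 (Ntn1) by 2.40. The ephrin receptors Epha4, Epha5 and Epha7, which are expressed on neurons, fell (-2.77, -2.95 and -2.50).

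Glycolysis and hypoxia genes were mostly lower in the tumours: 13 of 24 fell and 1 rose, with a median of -0.97. Aldoa, the muscle-type aldolase also used by neurons, had 1153.4, 1564.6, 1026.2 and 994.9 in glioma, against 3598.8, 3681.4, 3708.6, 3073.3 and 2859.1 in normal brain (-1.52 ± 0.16 on the log2 scale, SE, adjusted p = 7.71e-05). Pfkp, a phosphofructokinase, fell by 1.89, and the log2 differences of the neuronal enolase Eno2, the hexokinase Hk1 and pyruvate kinase Pkm were -3.48, -1.06 and -1.04. The hypoxia markers Vegfa, Car9 and Ldha were not called (0.17, 0.56 and 0.38), and Bnip3, also induced by hypoxia, fell by 2.05. The 1 member that rose was the lactate carrier Slc16a1 (0.66), whose call was lost without glioma B1 or B3 or normal brain B1, B4, B6 or B7 (adjusted p between 0.0553 and 0.119).

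Of 28 respiratory chain subunit genes 13 fell and none rose, by small amounts (median -0.42), with Uqcrc2 of complex III lowest at -0.99 and Sdha of complex II at -0.70. Of 17 serine, one-carbon and polyamine genes 12 rose and 1 fell (2 without glioma B1). Shmt2, the mitochondrial enzyme that splits serine to feed the folate cycle, had 381.7, 293.2, 175.1 and 253.2 in glioma, against 44.2, 56.2, 46.6, 30.3 and 64.7 in normal brain (2.35 ± 0.26 on the log2 scale, SE, adjusted p = 9.46e-05). Phgdh, the first enzyme of serine synthesis, rose by 1.28, the folate enzyme Mthfd2 by 1.53 and the amino acid carrier Slc7a5 by 1.73, while the transaminase Got1 fell by 2.86. Sterol and fatty acid synthesis genes were mostly not called (5 of 24 rose, none fell), and the count of rises was 2 without glioma B3 or normal brain B6 and 3 without normal brain B1. Without glioma B3, 2 were called lower.

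Neuron genes were prominent among the largest falls, and the 12 called genes with the largest fall whose groups did not overlap include Lamp5, Vip, Htr2c, Kcnc2, Hpca, Nefl and Sst. Of 25 pan-neuronal and synaptic vesicle genes 23 fell and none rose, with a median of -2.55. Syt1, the calcium sensor of synaptic vesicles, had 29.8, 206.3, 302.7 and 268.6 in glioma, against 3622.5, 1330.8, 3685.7, 3751.8 and 3162.0 in normal brain (-4.19 ± 0.59 on the log2 scale, SE, adjusted p = 0.000401). Snap25, which anchors vesicles to the membrane, had 141.5, 1446.3, 1777.3 and 2328.4 in glioma, against 5028.6 to 6886.2 in normal brain and fell by 2.57. Glioma B1 had the least of both, and gliomas B2, B3 and B7 kept a visible part of the normal level. Gap43, a growth cone protein, and Elavl4 were not called (-0.21 and -0.42).

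Inhibitory and excitatory genes fell together. Of 19 GABA and glycine genes 16 fell, with a median of -2.57. Gad2, which makes GABA, had 11.8, 59.1, 83.4 and 62.2 in glioma, against 859.1, 440.5, 475.6, 611.0 and 612.4 in normal brain (-3.50 ± 0.42 on the log2 scale, SE, adjusted p = 0.000162). Of 25 glutamate receptor and excitatory synapse genes 15 fell and none rose, with Grin2b, an NMDA receptor subunit, at -4.19 and Camk2a at -4.91. The AMPA receptor subunits were unequal: Gria1 fell by 3.50, while Gria2, Gria3 and Gria4 were not called (-0.71, -0.12 and 1.07). Of 26 potassium channel genes 17 fell and 1 rose, the channel-interacting protein Kcnip3 (1.19). As the mean over all probe sets the GABA and glycine median was -1.68 and no potassium channel gene was called higher.

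Genes of particular forebrain neurons fell as well. Of 22 cortical and hippocampal genes 15 fell and none rose (median -3.00), and of 21 striatal, interneuron and neuropeptide genes 17 fell and none rose (median -1.995). Vip, a peptide of cortical interneurons, had 4.0, 7.9, 7.2 and 5.8 in glioma, against 454.1, 67.0, 545.8, 822.6 and 566.1 in normal brain (-4.96 ± 0.59 on the log2 scale, SE, adjusted p = 0.000162). Crh, the stress peptide, had 0.2 to 21.4 in glioma and 113.6 to 299.4 in normal brain (log2 difference -4.31, adjusted p = 6.71e-05). Lamp5, also an interneuron gene, had 0.9, 6.3, 140.5 and 0.9 in glioma, against 558.3 to 922.0 in normal brain (log2 difference -5.40, adjusted p = 0.000409).

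Normal brain B2, the one with cerebellar transcripts, was the lowest normal array for many of these genes. Hpca, the calcium sensor hippocalcin, had 6.3, 32.8, 107.4 and 42.0 in glioma, against 267.2 in normal brain B2 and 1370.0 to 2327.4 in the other normal brains. Its log2 difference was -4.93 with B2 and -5.47 without it. Ddn, a dendritic protein of forebrain neurons, had 11.8 to 50.9 in glioma, 21.7 in normal brain B2 and 1890.7 to 2564.5 in the other normal brains, with log2 differences of -5.09 with B2 and -6.35 without it. Without normal brain B2 the cortical and hippocampal count was 18 of 22 in place of 15, and without that array and the gliomas B2 and B7 it was 19.

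Of 19 cerebellar granule and Purkinje cell genes 1 was called higher and 4 lower, with a median of -0.04. The level of this group was 5.78, 7.98, 5.72 and 8.30 in the gliomas, against 6.30, 9.15, 6.79, 6.33 and 6.60 in the normal brains. The tumours thus split into a pair with cerebellar transcripts and a pair without. Neurod1, a factor of granule neurons, had 18.9, 693.8, 22.9 and 735.0 in glioma, against 904.4 in normal brain B2 and 118.2 to 308.2 in the other normal brains. The direction depended on the arrays. Without normal brain B2 the median was 0.33, with 3 members higher and 3 lower, and without glioma B1 or B3 it was 0.18 or 0.38. Without the 3 arrays with cerebellar transcripts it was -0.42, with 2 members higher and 8 lower, and as the mean over all probe sets 0.02. The gliomas' own share of these transcripts and that of the tissue around them was not tested.

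**Figure D4:**
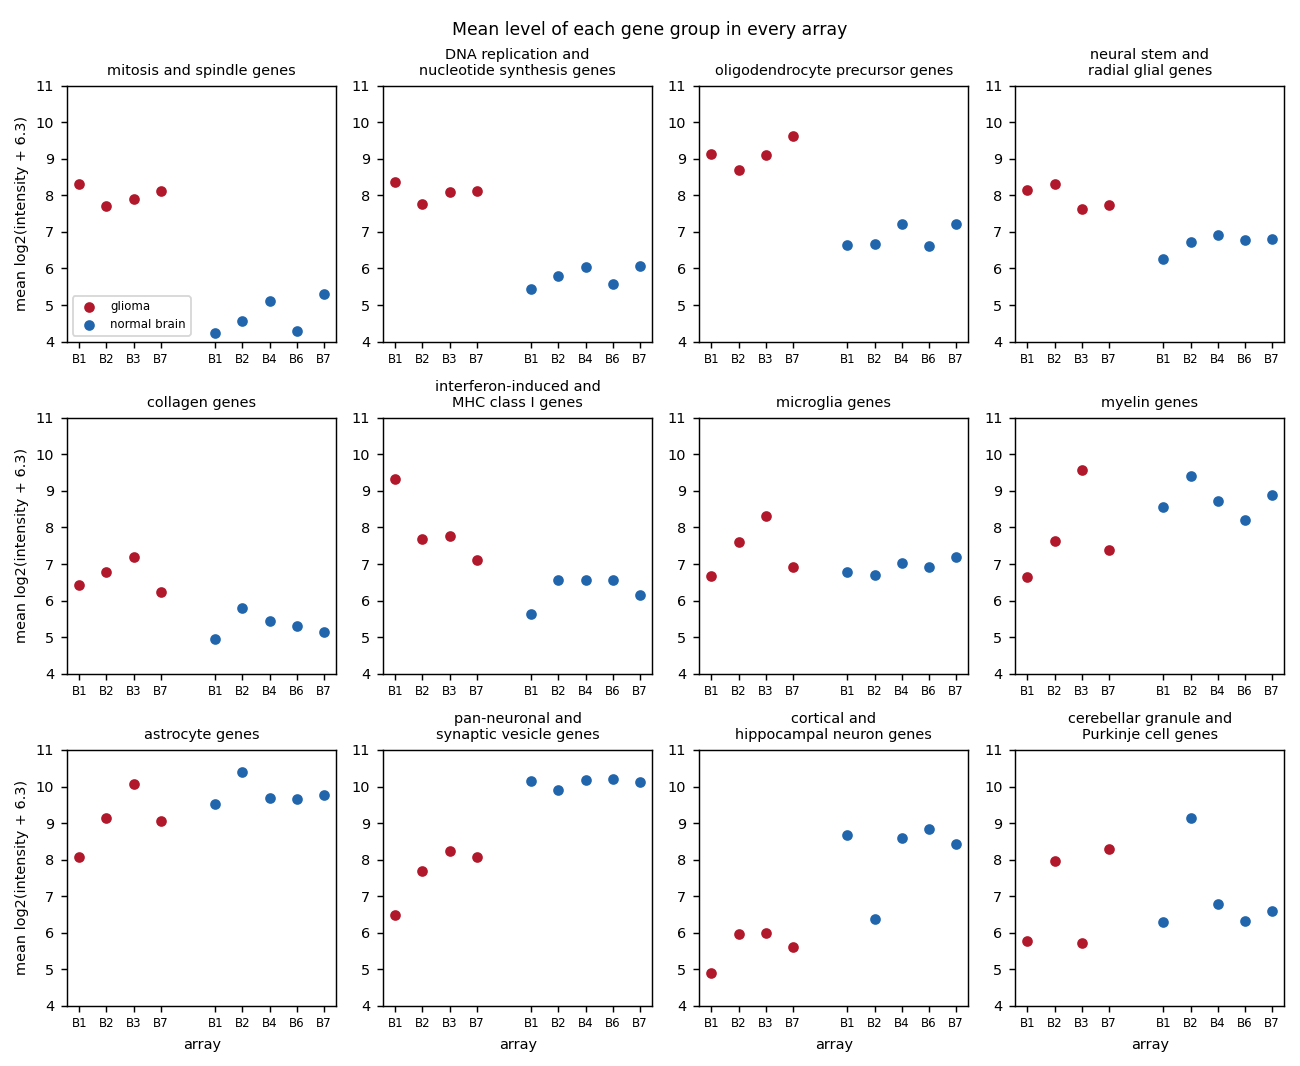
Mean log2(intensity + 6.3) of the tested members of 12 gene groups in every glioma (red, left) and normal brain (blue, right), named by array code. Mitosis and precursor genes separate all gliomas from all normal brains, glioma B1 stands out for interferon-induced genes (9.33) and glioma B3 for microglia (8.31) and myelin (9.58), and cerebellar genes mark gliomas B2 and B7 and normal brain B2.

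Immediate early genes went both ways: of 18 members 3 rose and 6 fell. The share called (50%) was near the 42.7% of all genes, so their values are given as a description. Arc and Egr3, which synaptic activity induces, fell (-3.20 and -4.25), with Egr3 at 3.8 to 69.2 in glioma, 30.6 in normal brain B2 and 665.1 to 1669.0 in the other normal brains. Fos and Nr4a1 were not called (0.81 and 0.80), and Atf3, a stress factor, rose by 1.65. The 6 falls were 3 without normal brain B1, B4, B6 or B7. Of 12 embryonic and imprinted genes 6 fell and none rose (2 rose without glioma B3, 1 without glioma B7). Ndn (necdin), an imprinted gene of neurons, had 133.0, 450.5, 660.5 and 683.8 in glioma, against 2448.2 to 3130.9 in normal brain (-2.76 ± 0.41 on the log2 scale, SE, adjusted p = 0.000508). Igf2, also imprinted, was not called and ranged widely, with 7323.4, 670.8, 4459.7 and 77.1 in glioma and 91.1 to 1208.2 in normal brain (1.43).

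Among immune genes, those of interferon and antigen presentation were called higher most often. Of 25 interferon-induced and MHC class I genes 21 rose and none fell, with a median of 1.63. Usp18, which restrains interferon signalling, had 2390.9, 246.7, 534.8 and 275.9 in glioma, against 16.1, 73.9, 101.8, 93.1 and 72.0 in normal brain (3.01 ± 0.67 on the log2 scale, SE, adjusted p = 0.00492). Ifit1, an antiviral protein, had 1106.7, 209.9, 525.5 and 163.4 in glioma, against 25.3 to 160.8 in normal brain and rose by 2.19. B2m, the light chain of MHC class I, had 5633.8, 3410.3, 3108.3 and 1894.4 in glioma, against 882.8 to 2004.6 in normal brain and rose by 1.25. Glioma B1 was the highest array for all 3 genes. Without glioma B1 the count was 20 and the median 1.34, and Usp18 then differed by 2.30. Without normal brain B1 the count was 17.

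Of 20 microglia genes 8 rose and none fell. The share called (40%) did not exceed the 42.7% of all genes called in either direction. Among all genes 21.9% were called higher. C1qb, a complement chain made by microglia, had 357.5, 742.9, 901.5 and 385.9 in glioma, against 264.9, 278.7, 247.5, 184.6 and 296.2 in normal brain (1.12 ± 0.28 on the log2 scale, SE, adjusted p = 0.00932). The markers that define resting microglia were not called: P2ry12 had 18.1, 45.7, 193.4 and 63.7 in glioma and 39.5 to 210.5 in normal brain (-0.93), and Cx3cr1, Tmem119 and Csf1r differed by 0.07, 0.29 and 0.01. Glioma B3 had the highest microglia level (8.31, against 6.67 to 7.61 in the other gliomas and 6.69 to 7.20 in normal brain), and without it 2 of the 20 were called higher and 2 lower. The count of 8 was also 3 without glioma B2 or normal brain B1 or B6, and 5 without normal brain B2 or B7. Of 19 macrophage and monocyte genes 7 rose and none fell, and their share called (36.84%) did not exceed the 42.7% either. Without glioma B2, 3 were called lower, and without the 3 arrays with cerebellar transcripts 4 were higher and 3 lower. Gpnmb, a gene of phagocytes, had 224.2, 245.6, 536.7 and 120.3 in glioma, against 15.6 to 111.1 in normal brain (log2 difference 2.50, adjusted p = 0.00372), and the MHC class II chain H2-Aa rose by 1.85. Lymphocyte markers were near the floor: Cd3e was at 1.5 to 5.0 in glioma and 2.0 to 5.0 in normal brain.

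Few vessel genes were called. Of 22 endothelial genes 3 were higher and 4 lower (median -0.27), but 1 was higher without glioma B2, 2 were lower without normal brain B2, B4, B6 or B7, and quantile normalization gave 1 higher and 6 lower. Of 19 pericyte and fibroblast genes 2 were higher and 4 lower, with a median near 0 (-0.03) that was positive without glioma B1, B3 or B7 or normal brain B2 (0.07 to 0.12) and as the mean over all probe sets (0.11). The 2 higher ones are Pdgfra and Cspg4, which precursors also express. The junction protein Ocln and the efflux pump Abcb1a, both of the blood-brain barrier, fell (-1.12 and -1.08), and the endothelial marker Pecam1 was not called (-0.45). The smooth muscle myosin Myh11 fell by 1.40 from already dim values (0.7 to 6.1 in glioma, against 11.3 to 30.8 in normal brain).

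Genes of the choroid plexus and of the ventricle lining were lower in the tumours. Of 12 choroid plexus genes 7 fell and none rose, and of 16 ependymal and cilium genes 9 fell and none rose, a count that was 5 without normal brain B7. Clic6, a chloride channel protein of the choroid plexus, had 10.8, 16.4, 10.5 and 17.2 in glioma, against 151.4, 239.9, 96.9, 113.2 and 267.9 in normal brain (-3.08 ± 0.31 on the log2 scale, SE, adjusted p = 6.24e-05). Ttr had 11.4, 146.5, 10.7 and 47.4 in glioma and fell by 5.90, although normal brain B1, at 32.8, lay within the gliomas. The ependymal gene Tmem212 had 0.3 to 5.9 in glioma and 18.9 to 56.4 in normal brain.

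Gliomas were then set against the other tumour of this genotype, 2 Rictor-heterozygous medulloblastomas (B4 and B6), to see which of these features the tumours had in common. Medulloblastoma is a cerebellar tumour that, in its SHH subgroup, grows from granule neuron progenitors. With the group means of all 28 arrays fitted together, 680 genes were higher in glioma (4.84%) and 440 lower (3.13%) than in medulloblastoma. Both comparisons use the same gliomas, so their values are given side by side. Oligodendrocyte precursor genes separated the tumours: 14 of 18 were higher in glioma than in medulloblastoma and none lower. Sox10 was at 808.9 to 1148.5 in the gliomas and at 39.1 and 56.6 in the medulloblastomas (4.21 ± 0.55 on the log2 scale, SE, adjusted p = 4.97e-05, limma), and 49.8 to 182.8 in normal brain. Pcdh15 was at 555.2 to 727.7 in the gliomas and at 20.9 and 34.0 in the medulloblastomas (log2 difference 4.33, adjusted p = 9.15e-06).

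Of the matrix and signalling genes above, Sema3d was at 34.1 and 46.8 in the medulloblastomas, 3.85 lower on the log2 scale than in glioma (adjusted p = 3.83e-05), Tgfa at 46.2 and 81.1 (3.17 lower, adjusted p = 0.000275), and Notch1 at 138.5 and 108.2 (2.62 lower, adjusted p = 0.000201). Sfrp1, a secreted WNT antagonist, differed most in the other direction, with 17.7, 18.9, 15.1 and 11.4 in glioma, 1847.9 and 1100.7 in medulloblastoma and 30.6 to 64.9 in normal brain (glioma minus medulloblastoma -6.03, adjusted p = 1.35e-07). The hedgehog target Gli1 was at 1.3 to 7.6 in glioma and at 183.2 and 107.4 in medulloblastoma, and Mycn at 113.2 to 150.8 in glioma and 2210.8 and 1345.7 in medulloblastoma.

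Few mitosis genes were called between the tumours: of 27 mitosis and spindle genes 0 were higher and 1 lower in glioma than in medulloblastoma, with a median of -0.73. Of 25 cyclins, CDKs and G1/S regulators 7 were lower in glioma and 1 higher, and of 23 DNA replication genes 4 were lower and 0 higher. Mki67 was at 1412.6 and 1792.5 in the medulloblastomas, and the difference of -1.13 (SE 0.86) was not called (adjusted p = 0.493), so at this size of comparison the levels cannot be ranked. Of the interferon-induced genes none was called in either direction. Without medulloblastoma B4 the total of 1120 called genes was 307, and without medulloblastoma B6 it was 658, so these counts rest on both arrays.

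The 2 gliomas of other genotypes, which did not enter the comparison with normal brain, also had high levels of the precursor genes. The level of that group was 9.97 in the p53-null-only glioma A4 and 9.77 in the Rictor-null glioma C3, against 8.68 to 9.63 in the heterozygous gliomas. The p53-null-only glioma A4 had a Sox10 intensity of 1119.3 and the Rictor-null glioma C3 943.6, and Pdgfra was at 3820.7 and 4545.9. Their levels of cell division genes differed: Mki67 was at 168.0 in A4 and 887.8 in C3, against 572.6 to 968.2 in the heterozygous gliomas, and the level of the mitosis group was 6.16 in A4 and 8.39 in C3, against 7.70 to 8.32. The level of the interferon-induced genes was 6.33 in A4 and 6.57 in C3, against 7.12 to 9.33 in the heterozygous gliomas and 5.63 to 6.57 in the heterozygous normal brains. Gliomas A4 and C3 thus lay below every heterozygous glioma for these genes. They were not compared with normal brain of their own genotypes, so whether the level is raised in them was not tested. With 1 array of each genotype no test of a genotype was made.

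**Figure D5:**
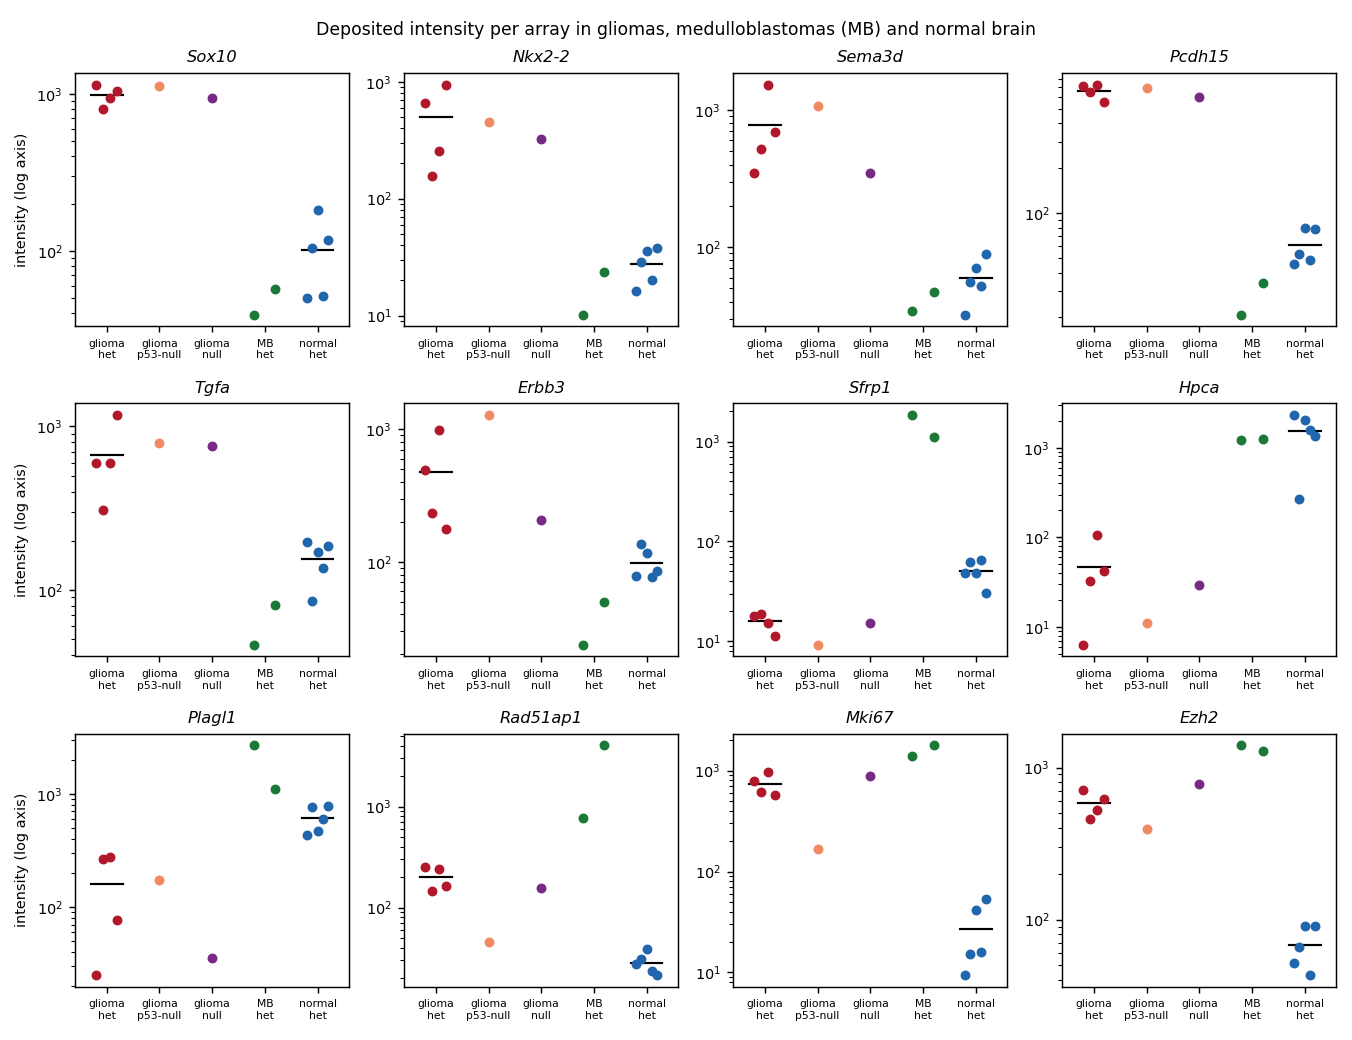
Deposited intensity (log axis, a different range in each panel) of 12 genes in the heterozygous gliomas (red), the p53-null-only glioma (orange), the Rictor-null glioma (purple), the heterozygous medulloblastomas (green) and the heterozygous normal brains (blue); bars are means of groups with more than 2 arrays. Sox10, Nkx2-2 and Pcdh15 are high in every glioma alone, Sfrp1 and Plagl1 are highest in medulloblastoma, and Mki67 is high in both tumours.

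The gliomas also differed among themselves, and the 8 tested genes with the widest range among them are given as a description. Cox8b, a cytochrome oxidase subunit of muscle and brown fat, had 2329.9 in glioma B1 and 0.8 to 6.7 in the other gliomas, against 8.5 to 45.6 in normal brain. Pth, parathyroid hormone, had 1574.0 in glioma B7 and 0.3 to 2.9 in the others. Cnmd, a cartilage gene (chondromodulin), had 4464.4 in glioma B3 and 11 to 66.1 in the others, in the same tumour that was highest for Col9a1. Phlda2, an imprinted gene, had 1220.2 in glioma B2 and 1.7 to 14.4 in the others. Each of these transcripts was thus bright in a single tumour and dim in normal brain, and none was called between the tissues. The others of the 8 were Xist, Mobp, Igf2 and Nefl, and Nefl, a neurofilament chain, ranged from 4.2 in glioma B1 to 971.3 in glioma B3. Among the normal brains the widest ranges were of Gabra6, Pcp2, Slc6a5, Gpr6, Cbln3, Drd1, Ddn and Ttr, all genes of particular brain regions or of the choroid plexus.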

How the data were processed

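Of 28 mouse arrays in 1 deposited table of 45101 probe sets, the 4 glioma and 5 normal brain arrays of the Rictor-heterozygous genotype were compared. The values are probe set intensities that the authors deposited on a linear scale. MAS5 and GCOS produced them, per the submitters' processing notes, in versions not given in the sources used here; in each array the mean trimmed by 2% at each end was 100. Signals limit the precision of dim genes, and the number of arrays limits that of all. Groups came from the labels, and 0 columns lacked a sample.

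Control probe sets (64) were left out. GEO's platform annotation gave 1 symbol for 34958 probe sets, several for 932 (not used) and none for 9211, which made 18194 genes, with the brightest probe set on average standing for each. Intensities were taken as log2 of the intensity plus 6.3, the 25th percentile of the table. A gene was tested if its average over the arrays exceeded the 30th percentile among probe sets, which left 14059. The test was limma 3.58.1 in R 4.3.3 (lmFit, and eBayes with a trend) on the 9 arrays and Benjamini-Hochberg adjustment at 0.05; medulloblastomas were compared in a fit of group means over 28 arrays. Python 3.11.15 (pandas 2.3.3, numpy 2.4.6) made the tables and matplotlib 3.10.9 the figures. Tested on simulated data for this comparison with 200 of 14059 genes changed, the fit recovered 88% of genes changed by 2 on the log2 scale and 46% of those changed by 1.

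Arrays entered by their labels, but the comparison and the gene lists were chosen with earlier results of these data known. Genes were named by rule: the 12 called genes with the largest rise and the 12 with the largest fall whose groups did not overlap (leaving out clone names), at most 4 called genes per list by size, the 8 genes with the widest range in each tissue, Rictor and the called mTOR complex subunits. Other members were named to describe their list, after their values were seen. For the called genes named by rule, no other probe set above the filter was called in the opposite direction. Rictor was not called by its main probe set (-0.09), but another of its probe sets was called higher (1.08). The alternatives were other pseudocounts, filters and scalings, the mean over probe sets, other sample sets and each array left out.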

Additional observations from a re-analysis of the deposited data

Results flagged for a closer look

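In 414 groups of 4 or 5 values per gene, the highest or lowest array lay far from the others (Dixon's test at 95%) in 55. Chance flags about 1 group in 20, but some of these genes were named for their wide range within a tissue, so 55 is not set against that. The values below are intensities, and no explanation was weighed.

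Among the gliomas, B1 was the highest for Oasl2 (1363.6), an interferon-induced gene, and for Cox8b (2329.9), Slc6a13 (14.9) and Spag6l (10.3), and the lowest for Cspg4 (170.2) and Ndufv1 (718.9). Glioma B2 stood apart for Dlx1 (5.0), Arc (14.8) and Lyz2 (1032.7). Glioma B3 stood apart for Xist (17.3), where it was the lowest, and for the neuron genes Htr2c (186.4), Kcnc2 (105.4), Grin2b (28.6), Gabra4 (73.3) and Crh (21.4) and the imprinted Dlk1 (26.5). Glioma B7 stood apart for Pth (1574.0). The neuron genes flagged in glioma B3 were all above the other gliomas.

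Among the normal brains, B2 gave 29 of the 55. It was far above the others for the cerebellar and hindbrain genes Gabra6 (1740.4), Pcp2 (1636.9), Cbln3 (778.3) and Slc6a5 (745.5). It was far below them for genes of neurons, several of them of the forebrain: Camk2a (222.5), Hpca (267.2), Ddn (21.7), Vip (67.0), Sst (255.9), Cck (219.7), Mal2 (79.3), Rasgrp1 (167.3), Kalrn (105.6), Syt1 (1330.8), Grin2b (41.5), Gabra4 (111.3), Egr3 (30.6), Nrg3 (61.2), Fgf13 (549.9), Epha4 (174.3) and Col25a1 (111.8). The other values flagged in that array are Nefl (3863.1), Nefm (2755.0), Gjb6 (1197.6), Adamts5 (87.5), Atp5a1 (2932.2), Mx2 (24.4), Phlda2 (30.8) and Rictor (388.6). Normal brain B1 stood apart for Ttr (32.8), for the interferon-induced Usp18 (16.1) and Oasl2 (12.3), and for Kcnab1 (1271.7), Atf3 (3.5) and Ptprc (32.1). Normal brain B4 stood apart for Dnmt3b (3.2) and Ms4a7 (25.9), and normal brain B7 for Itga9 (37.5).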

How the results depend on the processing

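Of 4692 values of 196 named genes under the alternatives, 4375 kept their direction and call, 312 lost the call and 5 changed direction. The reversed values are of Rictor and of Mtor (-0.42 in the report): Rictor (-0.09 in the report) was 0.454 as the mean over all probe sets, 0.312 within title prefix YZ2, 0.046 without glioma B1 and 0.025 without normal brain B2, with a lowest value of -0.186 without glioma B3, and Mtor was 0.013 as the mean over all probe sets; the cause was not tested. The count of genes called between glioma and normal brain ranged from 5503 (filter at the 50th percentile) to 6263 (random replicate block) under the other settings on 9 arrays. Without 1 array it ranged from 5007 to 6039. Within title prefix YZ 3138 were called (1482 higher, 1656 lower) and within YZ2 2682 (1292 higher, 1390 lower). Leaving out the 3 arrays with cerebellar transcripts gave 5893 calls (3095 higher, 2798 lower), so the count did not follow the number of arrays alone. With the array code as a replicate block in 3 pairs, 3476 genes were called (1626 higher, 1850 lower), against 3600 in the same 6 arrays unblocked (1722 higher, 1878 lower). The correlation of same-code deviations was 0.08 for B1, 0.20 for B2 and 0.03 for B7, and not every sample correlated best with its own code. The value for B2 was the highest of all pairs, and both B2 arrays carried cerebellar transcripts. Whether arrays of one code come from one mouse is not stated, and such correlations between different tissues cannot settle it. Against medulloblastoma, 396 genes were called on the 6 arrays alone (239 higher, 157 lower) and 184 within YZ2 (118 higher, 66 lower). Without 1 array the total ranged from 307 to 1077, the higher from 180 to 668 and the lower from 127 to 409. Without medulloblastoma B4 or B6 the lone array is assumed to vary like the other groups. Genes below the intensity filter were not tested, so nothing is said of differences among them.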
